A study of Mus musculus with 2 samples.

Results

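Mir144, Mir451a and Mir486 are the microRNA (miRNA) genes best known from red blood cells. They were chosen by gene name, as 3 of the 2202 miRNA genes of the GENCODE M21 annotation in deposited count tables from mouse adrenal gland. The tables come from microRNA-seq, the sequencing of RNAs in the size range of mature miRNAs. The animals were 36-day-old B6CASTF1/J females, the F1 cross of a laboratory with a wild-derived strain, and the labels give no treatment. The design has 1 group of 2 libraries, numbered as biological replicates 1 and 2 and described as separately numbered females, but with the same donor identifier for both. The spread between the libraries may therefore be technical in part. The labels do not say whether the blood was flushed from the animals before the glands were taken.

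Red cells lose their nucleus and keep a small set of very abundant miRNAs. Mir144 and Mir451a are made from 1 primary transcript that the factor GATA1 switches on during red-cell formation. Mir144 is cut from its hairpin by Drosha and Dicer in the usual way. The hairpin of Mir451a is too short for Dicer, and Ago2 cuts it instead, so that its mature miRNA reaches across the loop. Mir486 lies in the gene of the red-cell membrane protein ankyrin 1 and is also abundant in striated muscle. In a tissue with blood vessels these genes are commonly read as a sign of how much blood a sample holds.

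The mature sequences show how the products of the neighbours Mir144 and Mir451a differ. They are given 5′ to 3′ from RefSeq on GRCm38.p6, with bases 2 to 8, the seed that pairs with target messages, in capitals. Of the 3 members, 2 matched the RefSeq miRNA table, and Mir486 is named only.
mmu-miR-144-5p: gGAUAUCAucauauacuguaagu
mmu-miR-144-3p: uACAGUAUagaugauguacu
mmu-miR-451a: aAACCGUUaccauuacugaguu
mmu-miR-451b: uGGGAGCAgcaagagaaccgu

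None of these seeds occurred in a mature miRNA of another gene among the 1738 in the table. Over bases 2 to 7 alone, miR-144-3p matched 1 other, mmu-miR-101a-3p. Its gene Mir101a, named here after its values were seen, went the other way from Mir144. It had 148 CPM in replicate 1 and 195 CPM in replicate 2. CPM is the sense count per 1000000 reads counted on the sense strand of any miRNA gene. Mir101a shares at least 20 bases with Mir101b, so its level is uncertain. Mir101b had 663 CPM in replicate 1 and 456 CPM in replicate 2, the same direction as Mir144.

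The hairpins show where the mature sequences lie, here with the mature sequences in capitals.
Mir144 hairpin: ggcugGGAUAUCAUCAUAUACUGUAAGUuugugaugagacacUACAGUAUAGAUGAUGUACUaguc
Mir451a hairpin: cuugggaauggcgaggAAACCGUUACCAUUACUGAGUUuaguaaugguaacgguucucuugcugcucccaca
Mir451b hairpin: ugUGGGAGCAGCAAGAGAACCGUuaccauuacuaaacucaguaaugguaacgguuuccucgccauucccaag

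Mir144 has a mature miRNA on each arm. The RefSeq table gives 1 for Mir451a, from base 17 to base 38 of its 72 bases. Mir451b is read from the opposite strand of exactly the same bases as Mir451a.

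Mir144 lies at chr11:78073005-78073070 and Mir451a at chr11:78073170-78073241, both on the plus strand of mm10 and 99 bases apart. Neither lies within an annotated host gene. Mir451b covers all 72 bases of Mir451a on the minus strand. The protein-coding gene Eral1, which works in mitochondrial ribosome assembly, ends 134 bases beyond Mir451a on the minus strand. Mir486 lies at chr8:23142555-23142682 on the plus strand, in an intron of Ank1, and overlaps none of its exons. On the minus strand Mir3107, for which RefSeq lists mir-486b as a synonym, covers 90 of the 128 bases of Mir486, within an intron of the antisense transcript gene Gm15816.

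**Figure D1:**
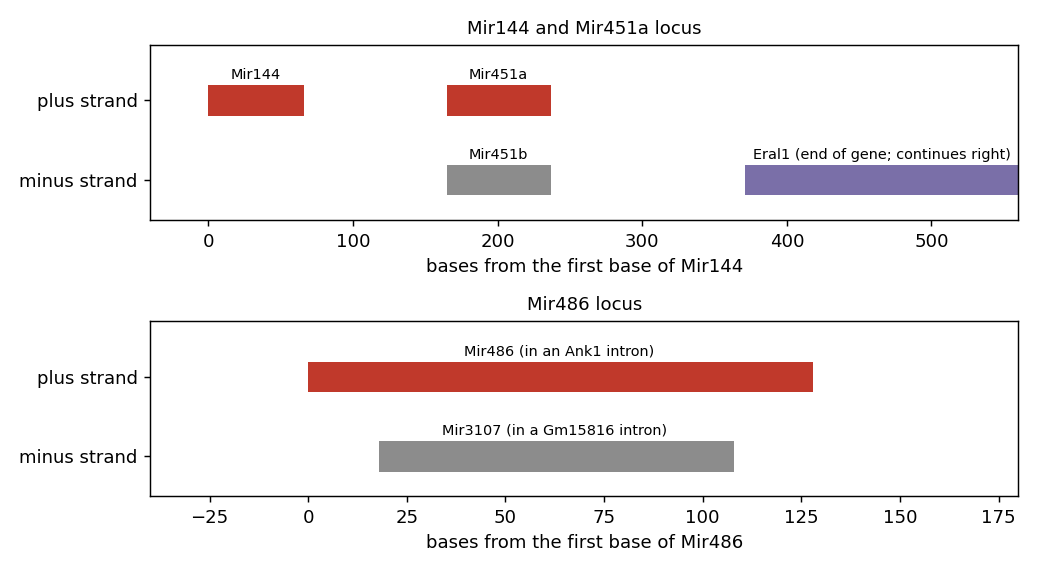
Maps of both loci, with the distance in bases from the first base of Mir144 (top) and of Mir486 (bottom) on the x axis and the strand on the y axis; red bars are the 3 members. Mir451b covers all 72 bases of Mir451a on the other strand, and Mir3107 covers 90 of the 128 bases of Mir486.

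Replicate 1 held 5397603 sense miRNA counts among 13973580 reads, and replicate 2 held 3029977 among 7530945. A single count equalled 0.185 CPM in the deeper library and 0.330 CPM in the other. Reads that mapped to several places, 28.5% and 30.6% of all reads, are in no gene's count. The most abundant gene by mean CPM was the endothelial Mir126a, with 133209 CPM in replicate 1 and 69285 in replicate 2. It ranked 1 in replicate 1 and 2 in replicate 2. Messages that define adrenal cortex or medulla are not measured by this assay. Mir375, a gene of endocrine cells, had 28922 and 22246 CPM.

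Mir451a was the most abundant of the red-cell genes, Mir144 followed, and Mir486 was far below both. Mir451a had 3899 counts in replicate 1, or 722 CPM (95% Wilson interval 700 to 745), and 1180 counts in replicate 2, or 389 CPM (368 to 412). Mir144 had 2351 counts in replicate 1, or 436 CPM (418 to 454), and 512 in replicate 2, or 169 CPM (155 to 184). Mir486 had 281 counts in replicate 1, or 52.1 CPM (46.3 to 58.5), and 53 in replicate 2, or 17.5 CPM (13.4 to 22.9). All 3 genes were thus higher in replicate 1, and these intervals cover counting error only.

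The mean levels were 556 ± 235 CPM for Mir451a, 302 ± 189 for Mir144 and 34.8 ± 24.4 for Mir486 (SD, n = 2 libraries). The order was the same in both libraries. The lower value of Mir451a (389 CPM) lay below the higher value of Mir144 (436 CPM), so their levels overlapped across the libraries. Both values of Mir486 were below every value of the other genes. Each read is counted once per short RNA and no level was divided by length. These are orders of read counts, and how the yield of library preparation differs between sequences was not measured.

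Among all 2202 miRNA genes, Mir451a ranked 102 by mean CPM, Mir144 ranked 126 and Mir486 ranked 231. All 3 were among the 339 detected genes, those with 10 or more counts in each library. The genes next to Mir451a in rank were Mir132 (560 ± 122 CPM), Mir101b (559 ± 146), Mir672 (545 ± 229) and Mir154 (538 ± 196). Those next to Mir144 were Mir1843a (308 ± 12.6), Mir369 (307 ± 36.5), Mir298 (300 ± 166) and Mir25 (295 ± 131). Those next to Mir486 were Mir1247 (36.3 ± 28.5), Mir187 (36.2 ± 0.735), Mir467c (34.4 ± 0.764) and Mir92-2 (33.9 ± 10.5). None of these neighbours differed in mean from the member by more than the member's own SD. Together the 3 red-cell genes held 0.121% of sense miRNA counts in replicate 1 and 0.0576% in replicate 2. Mir126a alone had 184 reads for each read of Mir451a in replicate 1 and 178 in replicate 2.

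Reads of the Mir144 and Mir451a pair were split in favour of Mir451a in both libraries, but not equally. Mir451a made up 62.4% of the pair's 6250 reads in replicate 1 (exact Clopper-Pearson 95% interval 61.2 to 63.6%) and 69.7% of 1692 in replicate 2 (67.5 to 71.9%). The intervals do not overlap, so the split differed between the libraries by more than counting error. It corresponds to 1.66 reads of Mir451a for each read of Mir144 in replicate 1 and 2.30 in replicate 2. This ratio needs no scaling between libraries. Mir486 held 4.30% of the 3 genes' counted reads in replicate 1 (3.82 to 4.82%) and 3.04% in replicate 2 (2.28 to 3.95%). These intervals overlap, and any reads of Mir486 that mapped to several places are in neither share.

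Strand decided whether Mir451a and Mir486 were seen at all. Counted without strand, both had 0 counts in each library, while Mir144, with no miRNA gene on its other strand, had the same 2351 and 512 counts as before. A read in a stretch annotated on both strands counts for neither gene without strand. With strand, Mir451b had 0 sense counts in either library, which allows a level of at most 0.556 CPM in the first and 0.990 CPM in the second. Its 3899 and 1180 antisense counts are the sense reads of Mir451a counted a second time. A miRNA gene lies on the opposite strand for 64 of the 2202 genes (2.91%). Of the 339 genes with at least 10 counts in both libraries, 25 (7.37%) had 0 counts in both without strand.

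**Figure D2:**
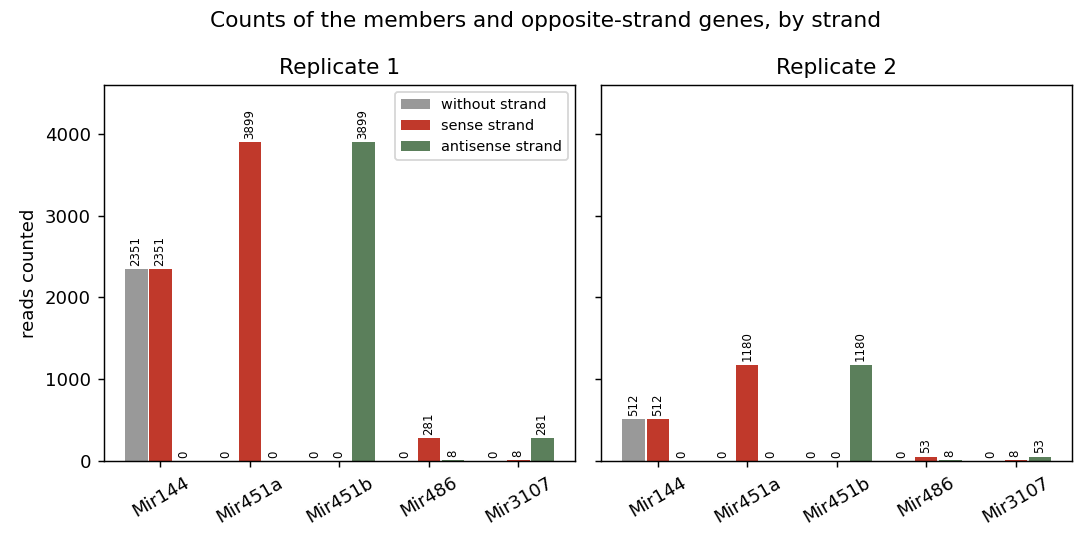
Reads counted (y axis) for the members and for the genes opposite them, without strand (grey), sense (red) and antisense (green), in replicate 1 (left) and replicate 2 (right). Mir144 has 2351 and 512 counts with or without strand, whereas Mir451a and Mir486 have 0 without strand.

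The hairpin of Mir486 also differed from nearly all other detected hairpins in how far it matches its own reverse complement. Its longest such stretch was 22 bases, against 16 in Mir451a, 9 in Mir144 and a median of 7 over the 2202 genes. A read lying wholly within those 22 bases matches both strands of the locus equally well, at Mir486 and at Mir3107, and would count as mapped to several places. How many of the 3984008 and 2302439 reads that mapped to several places came from Mir486 was not measured, so its level holds for counted reads only and its rank below Mir144 and Mir451a is uncertain. Mir486 was the 1 gene with a stretch of at least 22 bases among the 339 detected, while 68 of all 2202 had one. In Mir451a, the 22 bases of the mature miRNA share a run of 16 with the other strand, so a full-length read matches only 1 strand exactly.

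**Figure D3:**
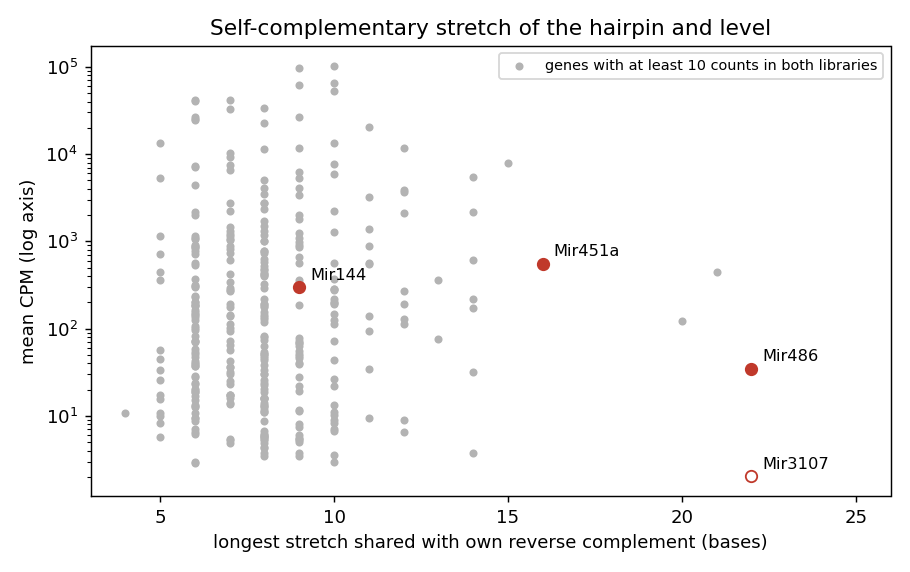
Mean CPM (y axis, log axis) against the longest stretch of the hairpin that is shared with its own reverse complement (x axis, bases); grey points are genes with at least 10 counts in both libraries, red points are the members and the open point is Mir3107. Mir486 lies at 22 bases, Mir451a at 16 and Mir144 at 9.

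The comparison of the libraries asked whether the red-cell genes differed between them, and they were higher in replicate 1 by 1.50-fold to 2.40-fold. Ratios were scaled by TMM, which sets library sizes from the bulk of genes. Mir144 was 2.09-fold higher in replicate 1 (log2 ratio 1.06, adjusted p = 1.05e-58, two-sided exact binomial test, Benjamini-Hochberg over 434 genes). Mir451a was 1.50-fold higher in replicate 1 (log2 ratio 0.59, adjusted p = 2.21e-36, same exact test). Mir486 was 2.40-fold higher in replicate 1 (log2 ratio 1.26, adjusted p = 5.20e-10, same exact test). The test compares 2 libraries against counting error and not conditions.

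This count of 3 of 3 is read against the background, since 30.2% of the 434 genes tested were called higher in replicate 1 by the same test (131 genes, with 123 called higher in replicate 2). With total counts in place of TMM, 189 were called higher in replicate 1 and 83 in replicate 2, a scaling that moves every ratio by 0.30 on the log2 scale towards replicate 1. The ratio of Mir486 was exceeded by 49 of the 434 genes, that of Mir144 by 63 and that of Mir451a by 120. The median log2 ratio was 1.06 over the 3 red-cell genes and 0.06 over all genes tested. The differences were larger than counting error. The pooled spread over all genes was a coefficient of variation of 41.6%, but it comes from these same 2 libraries, so whether the differences exceed the spread between animals was not tested. In whole-gland RNA, fewer red cells and less of these miRNAs per cell cannot be told apart.

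**Figure D4:**
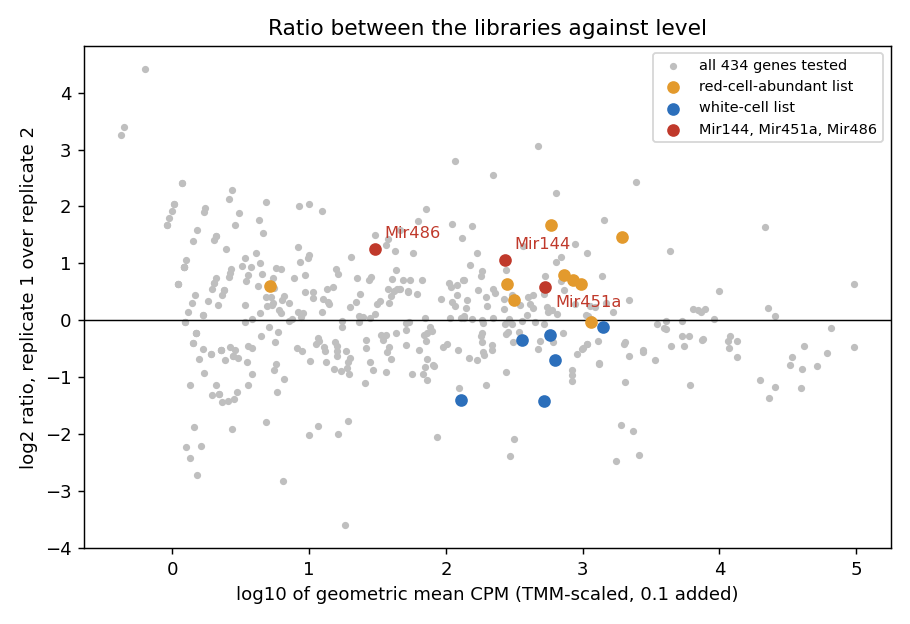
Log2 ratio of replicate 1 over replicate 2 (y axis) against the log10 geometric mean CPM with TMM scaling (x axis) for the 434 genes tested, with the members in red, the white-cell list in blue and the list of genes abundant in red cells in orange. The 3 members lie above 0, between 0.59 and 1.26, within the cloud of grey points.

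The members did not move by the same factor. The exact 95% interval of the fold for counting error was 1.41 to 1.61 for Mir451a, 1.90 to 2.31 for Mir144 and 1.79 to 3.30 for Mir486. Without a correction for GC content, the interval of Mir451a lay below both others, and those of Mir144 and Mir486 overlapped. Ratios between the libraries rose with the GC content of the hairpin (Spearman's rho 0.282 across the 434 genes, which share both libraries). The hairpins of Mir144, Mir451a and Mir486 have 37.9%, 47.2% and 63.3% GC. With the linear GC trend removed, the log2 ratios were 1.40 for Mir144, 0.70 for Mir451a and 0.98 for Mir486, which puts Mir144 in front of Mir486. The order of these ratios therefore depends on that correction, while their direction does not. No interval was computed with the trend removed, so whether those of Mir451a and Mir486 stay apart was not tested.

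A second list held 9 genes that are abundant in red cells but made in many cell types, and these too were mostly higher in replicate 1. Like the members, this list and those below were chosen with earlier results of these data known. With TMM, 7 of 9 were called higher in replicate 1, against 30.2% of all genes tested, and 0 in replicate 2. The 9 genes are not 9 separate loci, since Mir15a lies beside Mir16-1 and Mir106b beside Mir25. The median log2 ratio was 0.64 against 0.06 over all genes tested. Mir106b, of a cluster known from dividing cells, had 1163 CPM in replicate 1 and 295 in replicate 2. Mir25 of the same cluster was also called higher in replicate 1 (log2 ratio 0.64). Mir93, of that cluster but not on the list, was called higher in replicate 2 (log2 ratio -0.69). It was named here after its values were seen. Mir15a, a gene that restrains the cell cycle, had 3613 and 1058 CPM. Mir16-1, its neighbour, had 1343 and 704 CPM. On this list Mir16-1, Mir16-2 and Mir92-1 share at least 20 bases with another locus. Reads of theirs may be among those that mapped to several places, so their levels are uncertain. Mir363, the lowest of the list, had 38 and 11 counts and did not pass the test (adjusted p = 0.293, exact binomial test). Mir185 had 1264 and 1042 CPM and did not pass either (adjusted p = 0.538, exact binomial test), with a log2 ratio of -0.02. With total counts it was called higher in replicate 1 (log2 ratio 0.28, adjusted p = 4.46e-19, exact binomial test). The summed level of the 9 genes was 10448 CPM in replicate 1 and 4654 in replicate 2. All but Mir363 had a mean of at least the 295 CPM of Mir25, against 302 CPM for Mir144.

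The white-cell list went the other way from the red-cell genes with TMM. All 6 of its genes were called higher in replicate 2, against 28.3% of all 434 genes tested, with a median log2 ratio of -0.52 against 0.06 over all genes. Mir142, a gene of all blood-forming lineages but best known from white cells, had 356 CPM in replicate 1 and 772 in replicate 2. Mir223, of neutrophils and other myeloid cells, had 88.4 and 189 CPM. Mir150, of mature lymphocytes, had 547 and 724 CPM. With total counts these 3 kept their call and the others did not, against 83 of all 434 genes called higher in replicate 2. Mir146 was then called higher in replicate 1 (log2 ratio 0.19, adjusted p = 2.63e-11, exact binomial test). Because Mir146 shares at least 20 bases with Mir146b, its level is uncertain. Mir342 turned to a log2 ratio of 0.04 and lost its call (adjusted p = 0.469), and Mir155 lost its call at -0.04 (adjusted p = 0.565, both by the exact binomial test). Within each library, which needs no scaling, the 3 red-cell genes had 0.354 reads for each read of the 6 white-cell genes in replicate 1 (6531 against 18461) and 0.147 in replicate 2 (1745 against 11893).

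**Figure D5:**
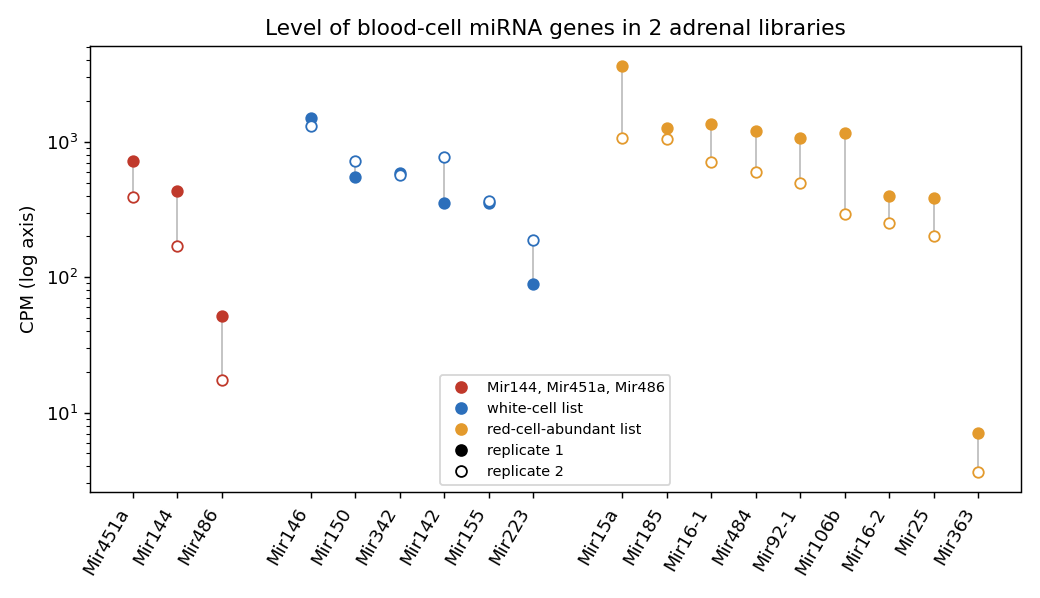
CPM (y axis, log axis) of the red-cell genes, the white-cell list and the list of genes abundant in red cells (x axis) in replicate 1 (filled points) and replicate 2 (open points), joined by a line for each gene. Replicate 1 is higher for all 3 red-cell genes and lower for Mir142, Mir223 and Mir150.

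Genes of other sources also differed between the libraries. Mir122, of hepatocytes, had 1503 and 146 CPM, 8.33-fold higher in replicate 1 with TMM, and Mir126a was 1.56-fold higher in replicate 1, close to the 1.50-fold of Mir451a. The striated-muscle list, set beside Mir486 because that gene is abundant in muscle, had 4 genes tested. Mir206 had 474 and 494 CPM, Mir208b 6.67 and 19.8 CPM, and Mir499 8.89 and 29.0 CPM, and these 3 were called higher in replicate 2 with TMM, against 28.3% of all genes tested. With total counts Mir206 lost its call (log2 ratio -0.06, adjusted p = 0.259, exact binomial test). Mir1a-2 had 11 and 2 counts and did not pass the test. The other 3 muscle genes, Mir1a-1, Mir133a-1 and Mir133a-2, had at most 1 count in a library. All 4 of the Mir1a and Mir133a genes share at least 20 bases with another locus, so reads of theirs may be among those that mapped to several places. Of the endocrine list, Mir375 differed by 1.05-fold with TMM and was called higher in replicate 1, with a log2 ratio of 0.38 with total counts. Mir7b was 1.44-fold higher in replicate 2 with TMM (log2 ratio -0.53, adjusted p = 5.66e-158, exact binomial test). Mir7-1 and Mir7-2 did not pass the test (log2 ratios 0.04 and 0.05). The part of liver, muscle, vessel or white-cell content in the ratios of the red-cell genes was not tested.

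By the distance of log2(CPM + 1) over the 2 libraries, the 3 genes nearest to Mir451a were Mir672 (0.0382), Mir154 (0.101) and Mir497 (0.138). Those nearest to Mir144 were Mir298 (0.126), Mir25 (0.307) and Mir467d (0.486), and Mir25 also belongs to the list of genes abundant in red cells. Those nearest to Mir486 were Mir1247 (0.158), Mir3072 (0.358) and Mir6538 (0.364). Over 2 libraries this is likeness of level and ratio only. Neither Mir144 nor Mir486 was among the 3 nearest to Mir451a, though Mir144 lies 99 bases away. Mir467d shares at least 20 bases with other loci, so its level is uncertain.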

How the data were processed

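MicroRNA-seq counts of 2 libraries from 1 group were used. The authors deposited raw counts of reads for each miRNA gene (without strand, sense and antisense, in 3 columns) on mm10 with GENCODE M21 annotation, per the notes deposited with each library. No aligner, counter or trimming step is named in the labels or notes used. The columns have no header and add up to the same total with their 4 summary entries (25.98% and 22.34% unmapped, 28.51% and 30.57% mapped to several places, 6.88% and 6.86% in no miRNA gene, 8.64% and 6.86% ambiguous without strand). These entries entered neither library sizes nor tests.

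Levels are sense counts as CPM. Ratios were scaled by TMM (edgeR 4.0.16 under R 4.3.3) with 0.5 counts added, for genes whose counts in the libraries summed to 10 or more. The tests were exact binomial tests with Benjamini-Hochberg adjustment, and edgeR's exact test with its common dispersion from both libraries. Intervals used statsmodels 0.14.6 and scipy 1.17.1. The floor for 0 counts was 3 counts per library. Hairpin GC content and stretches came from GENCODE M21 transcripts. The ratio step was tested on simulated data with counting error only, which cannot show how it behaves with spread between libraries. Alternatives were other scalings (with DESeq2 1.42.0), filters, priors, strand, thinning, GC content and leaving out a library.

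The genes named are the members, genes within 10000 bases, the marker lists, the 2 genes above and below each member in rank and the 3 nearest by distance. Members and lists were chosen with earlier results of these data known.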

Additional observations from a re-analysis of the deposited data

Results flagged for a closer look

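Reads on the antisense strand of Mir486, which no level above uses, numbered 8 in replicate 1 and 8 in replicate 2, above the 3 counts that a count of 0 allows. They are the sense reads of Mir3107, which had 1.48 and 2.64 CPM. Mir3107 made up 2.77% of the counted reads of both genes in replicate 1 (8 of 289, exact Clopper-Pearson 95% interval 1.20 to 5.38%) and 13.1% in replicate 2 (8 of 61, 5.84 to 24.2%). Between the libraries Mir3107 did not pass the test (log2 ratio -1.13, adjusted p = 0.164, exact binomial test). No antisense reads were counted at Mir144 or Mir451a in either library.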

How the results depend on the processing

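Each red-cell gene kept its direction and its call under all alternatives that kept counting error as the error (10 for Mir144, 9 each for Mir451a and Mir486). Adding 2 counts in place of 0.5 could not change a call, because the exact binomial test uses the counts as they are. Calls in either direction were common, with 272 of 434 genes called with total counts. Among genes with at least 10 counts in both libraries, 240 of 339 were called. The log2 ratios ranged from 0.99 to 1.40 for Mir144, 0.52 to 0.89 for Mir451a and 0.98 to 1.56 for Mir486. Adjusted p (exact binomial test) was at most 4.29e-48, 6.60e-28 and 2.96e-06. With the pooled spread as the error, log2 ratios of 1.06, 0.59 and 1.26 had adjusted p = 0.999 in edgeR's exact test, and 0 genes were called in place of 254 (24 at an unadjusted p under 0.05). That spread was estimated from the difference between the same 2 libraries, so these losses follow from its construction and say nothing about stability. Without strand, Mir451a and Mir486 had a level of 0, a share of 0% and no ratio. The summed level was then 382 CPM and the red-cell to white-cell ratio 0.0979. Mir142 of the white-cell list also had 0 counts without strand, so both sides of that ratio lost genes. Per 1000000 of all reads, Mir451a had 218 and the 3 genes together 350 in place of 893. Without Mir146, the most abundant white-cell gene, the red-cell to white-cell ratio was 0.424 in place of 0.250. Leaving out 1 library gave 169 to 436 CPM for Mir144, 389 to 722 for Mir451a, 17.5 to 52.1 for Mir486 and 576 to 1210 for the sum. It gave 62.4 to 69.7% for Mir451a in its pair, 3.04 to 4.30% for Mir486 and 0.147 to 0.354 for the red-cell to white-cell ratio. A ratio between 2 libraries has no value with 1 left out. No paired analysis was possible because there was 1 group. Low counts limit Mir486 most, with 53 in replicate 2, and how many of its reads mapped to several places was not measured.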

Other observations

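Besides Mir486, 2 detected genes had hairpins that share at least 20 bases with their own reverse complement, and both were named after their values were seen. Mir299a of the imprinted Dlk1-Dio3 locus had a stretch of 21 bases, and Mir374b on chromosome X had 20 bases. Over all 2202 genes, 86 had such a stretch and 3 of these were detected.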
